A study of Mus musculus with 6 samples.

Results

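Cathepsins are the proteases of the lysosome and cystatins are their protein inhibitors. The 10 genes described here, out of 26554 features in each deposited file, were found by gene name: the cathepsin genes Ctsb, Ctsc, Ctsd, Ctsh, Ctsk, Ctsl, Ctss and Ctsz and the cystatin genes Cst3 and Cst7. The tissue was VPL/VPM of wild-type C57 mice, the ventral posterior nuclei of the thalamus (lateral and medial part), which relay body and face sensation. The collagenase group (3 libraries) had received 10 nL with 0.01 U of type IV collagenase in the right VPL/VPM, an enzyme that damages vessel walls and causes bleeding, and the saline group (3 libraries) had received 10 nL of saline. Tissue was taken on day 14 in both groups. Age, sex and the number of animals behind each library are not in the labels, so p-values reflect only how these samples differ, which may be technical in part. The series uses the injection as a model of central post-stroke pain.

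Most cathepsins are papain-like cysteine proteases, and cathepsin D is an aspartic protease that cystatins do not block. They are made as inactive precursors, sorted to lysosomes by the mannose 6-phosphate route and switched on at acid pH, where they degrade engulfed and worn-out protein. Microglia and macrophages are rich in them, neurons depend on cathepsins B and D for turnover, and cystatin C (Cst3) is a major secreted inhibitor in brain, made largely by glia.

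All 10 genes passed the filter on low counts, and 8 of them rose after collagenase, 0 fell and 2 did not pass (edgeR quasi-likelihood test, Benjamini-Hochberg adjusted p under 0.05 over 17240 features). Over all tested features 2.41% were called, 2.12% as higher and 0.29% as lower. The 8 were Cst7, Ctss, Ctsh, Ctsc, Ctsd, Ctsz, Ctsl and Ctsb, and the 2 that did not pass were the inhibitor Cst3 and the cathepsin gene Ctsk. For the same 8 genes all collagenase libraries lay above all saline libraries, which held for 10.1% of tested features. For 0 of the 10 genes did all collagenase libraries lie below all saline libraries, against 7.5% of tested features. The median log2 fold change of the 10 genes was 1.42, against -0.02 over all tested features. The count of 8 rested on all 6 libraries: it was 5, 4 and 6 without collagenase replicates 1, 2 and 3, and 4, 6 and 7 without saline replicates 1, 2 and 3.

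Total counts were 36463551 to 44815451 in collagenase and 33603076 to 44363142 in saline libraries. Markers of thalamic relay neurons summed to 2303 to 2677 CPM in collagenase and 2396 to 3408 CPM in saline libraries, where CPM is the count scaled to library size with TMM factors. Of these 0 of 10 passed in edgeR (1 at an unadjusted p under 0.05, and 1 called in DESeq2), and their median log2 fold change was -0.20. For 1 of the 10 all collagenase libraries lay below all saline libraries, against 7.5% of tested features. Neurod6, a gene of hippocampal and cortical neurons, had 174, 20 and 22 counts in collagenase libraries, against 1022, 1367 and 6 counts in saline libraries. It is 1 of 10 genes listed for hippocampus and cortex, which summed to 208.9, 154.9 and 152.0 CPM in collagenase libraries, against 253.0, 240.7 and 287.4 CPM in saline libraries, and 0 of 10 passed in edgeR (2 at an unadjusted p under 0.05, and 2 called in DESeq2). The listed genes did not move together: saline replicate 3 was the lowest saline library for 5 of them, Neurod6 included, and the highest for the other 5. Their part in the results was not tested. Saline replicate 3 also stood apart over all genes: its chi-square per degree of freedom was 148.8 and 130.5 against saline replicates 1 and 2, which gave 23.7 against each other. Without it 503 features were called higher and 414 lower, against 366 and 50 with all libraries.

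**Figure D1:**
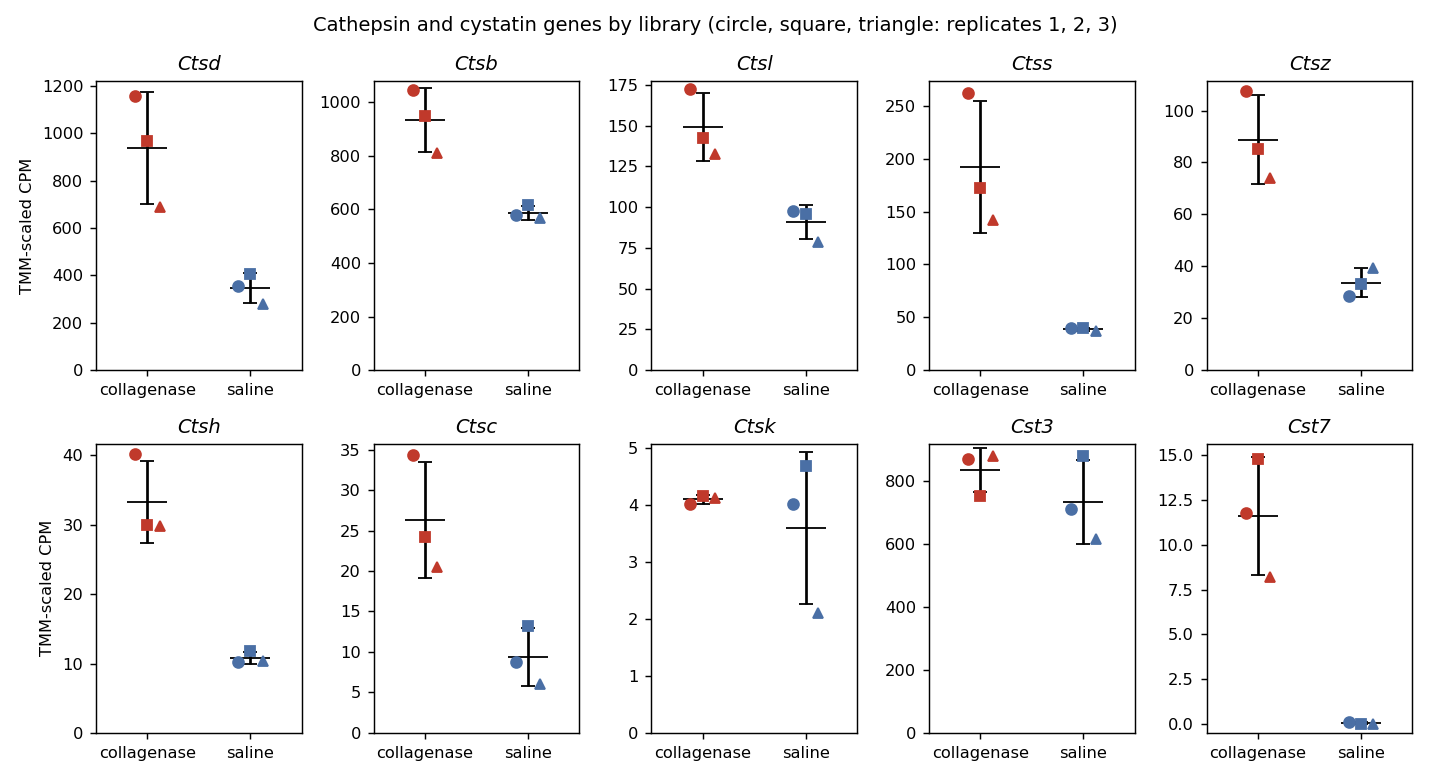
TMM-scaled counts (CPM, linear axes) of the 10 genes in each library, collagenase left and saline right. Symbols are libraries, bars are the mean and SD over 3 libraries. The groups are separate in every panel except Ctsk and Cst3.

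Ctsd (ENSMUSG00000007891, chromosome 7, 142375911 to 142388038, minus strand, GRCm38) encodes the aspartic endopeptidase cathepsin D, the main protease of its class in lysosomes. It measured 1159, 970 and 687 CPM in collagenase replicates 1, 2 and 3, against 355, 408 and 280.1 CPM in saline replicates 1, 2 and 3. Every collagenase library was above every saline library. Ctsd averaged 939 ± 238 CPM in collagenase and 348 ± 64.3 CPM in saline libraries (SD, n = 3 each), which gave 1.43 as the log2 fold change (standard error, SE, 0.21; edgeR adjusted p 0.0148). The call ended without collagenase replicate 2 (edgeR adjusted p 0.0606) and without saline replicate 1 (0.0904). Another gene model, Gm49369, covers 34.4% of the exon bases of Ctsd on the same strand, and it had 0 counts in every library.

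Ctsd is shown with its promoter because it was the most abundant cathepsin and holds the E-box of the CLEAR element, the motif that the lysosomal regulator TFEB binds. The window runs from 250 bases before to 50 bases after the annotated start (RefSeq, GRCm38.p6, chr7:142387778-142388077, minus strand), and capitals mark CACGTG, a motif that reads the same on both strands.
Ctsd promoter: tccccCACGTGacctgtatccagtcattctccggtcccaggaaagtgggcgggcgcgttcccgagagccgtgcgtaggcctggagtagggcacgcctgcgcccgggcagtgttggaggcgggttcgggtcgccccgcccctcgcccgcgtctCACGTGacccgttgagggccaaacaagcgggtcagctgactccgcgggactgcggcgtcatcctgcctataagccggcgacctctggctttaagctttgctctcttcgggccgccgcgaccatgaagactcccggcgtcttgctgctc
The motif begins 245 and 98 bases before the start. It was found in 2 of the 8 genes of the set that have a RefSeq window, Ctsd and Ctsl, and in 8.09% of 27025 genes in the table. An exact match to the full CLEAR element of 10 letters, a palindrome around this E-box, was in 0 of the 8 and in 0.37% of genes. Sites that differ from it in any letter were not counted. Ctsb and Ctsh were not in the table.

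Ctsb and Ctsl encode cathepsins B and L, cysteine proteases that degrade a broad range of lysosomal cargo. Both rose, with smaller log2 fold changes than Ctsd, a difference that was not tested. Ctsb (ENSMUSG00000021939, chromosome 14, 63122462 to 63145923, plus strand) measured 1046, 947 and 808 CPM in collagenase replicates 1, 2 and 3, against 577, 617 and 566 CPM in saline replicates 1, 2 and 3. The lowest collagenase library was above the highest saline library. The log2 fold change was 0.67 (SE 0.12, 95% interval 0.39 to 0.95) with an edgeR adjusted p of 0.0318. Exons of Fdft1, a sterol synthesis gene on the opposite strand, cover 12.8% of the exon bases of Ctsb. Fdft1 measured 66.2 CPM in collagenase and 75.7 CPM in saline libraries on average and did not pass (log2 fold change -0.19, SE 0.15, edgeR adjusted p 0.708). Ctsb was not called without collagenase replicate 1 or 2 (edgeR adjusted p 0.12 and 0.132) or without saline replicate 1 or 2 (0.169 and 0.0545).

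Ctsl (ENSMUSG00000021477, chromosome 13, 64359337 to 64370890, minus strand) measured 173, 142 and 133 CPM in collagenase replicates 1, 2 and 3, against 97.8, 95.9 and 78.6 CPM in saline replicates 1, 2 and 3. The groups did not overlap. Its log2 fold change was 0.72 (SE 0.13, 95% interval 0.41 to 1.03) with an edgeR adjusted p of 0.0338. The call held only without saline replicate 3 (edgeR adjusted p 0.0298), and ended without collagenase replicates 1, 2 or 3 (0.118, 0.104 and 0.0695) and without saline replicates 1 or 2 (0.124 and 0.058). The deposited FPKM, a count scaled to transcript length and depth, was less separate for Ctsl than the count. It was 49.8, 38.01 and 40.6 FPKM in collagenase replicates 1, 2 and 3, and 27.3, 35.1 and 24.6 FPKM in saline replicates 1, 2 and 3, and did not pass in limma on log2(FPKM + 0.1) (log2 fold change 0.57, adjusted p 0.168). The count per FPKM differed 1.38-fold between libraries for Ctsl after scaling for depth, where the median over 12494 well-counted genes was 1.01-fold and 5.12% of them exceeded 1.2-fold. An antisense gene, Gm47123, covers 26.8% of the exon bases of Ctsl, and the protocol names no step that keeps the strand.

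Ctss encodes cathepsin S, a cysteine protease of antigen-presenting cells that trims the invariant chain of class II molecules and stays active at neutral pH. It had the largest log2 fold change of the 8 cathepsins. Ctss (ENSMUSG00000038642, chromosome 3, 95526786 to 95556403, plus strand) measured 262, 172 and 142 CPM in collagenase replicates 1, 2 and 3, against 39.7, 39.65 and 36.9 CPM in saline replicates 1, 2 and 3. The saline libraries were close to each other and the collagenase libraries were spread. It averaged 192 ± 62.5 CPM in collagenase and 38.7 ± 1.60 CPM in saline libraries (SD, n = 3 each), which gave 2.31 as the log2 fold change (SE 0.22; edgeR adjusted p 0.00242). The call survived the removal of any 1 of the 6 libraries, with log2 fold changes of 2.02 to 2.49.

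Ctsk encodes cathepsin K, the collagen-degrading protease of osteoclasts, which fibroblasts also make. It lies 17423 bases from Ctss on the same strand with 0 annotated genes between them (ENSMUSG00000028111, chromosome 3, 95499256 to 95509362). Ctsk measured 4.01, 4.17 and 4.12 CPM in collagenase replicates 1, 2 and 3, against 4.01, 4.68 and 2.11 CPM in saline replicates 1, 2 and 3. All collagenase values lay within the saline range. The log2 fold change was 0.19 with a 95% interval of -0.47 to 0.84 (edgeR adjusted p 0.876), an interval that includes a fall, no difference and a rise. Without saline replicate 3, which was low, the log2 fold change was -0.09 (edgeR adjusted p 0.847).

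The promoters of Ctss and Ctsk are set side by side because Ctss was called and its neighbour Ctsk was not. Capitals mark the letters GAGGAAGT, read on either strand, a core bound by the myeloid factor PU.1 (RefSeq, GRCm38.p6, plus strand, chr3:95526536-95526835 for Ctss and chr3:95498960-95499259 for Ctsk, from 250 bases before to 50 after the start).
Ctss promoter: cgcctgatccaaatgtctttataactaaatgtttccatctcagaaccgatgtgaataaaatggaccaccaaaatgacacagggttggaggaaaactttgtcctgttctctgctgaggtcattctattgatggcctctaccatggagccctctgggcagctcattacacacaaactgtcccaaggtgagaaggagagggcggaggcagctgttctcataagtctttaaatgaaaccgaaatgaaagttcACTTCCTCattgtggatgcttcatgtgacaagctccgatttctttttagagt
Ctsk promoter: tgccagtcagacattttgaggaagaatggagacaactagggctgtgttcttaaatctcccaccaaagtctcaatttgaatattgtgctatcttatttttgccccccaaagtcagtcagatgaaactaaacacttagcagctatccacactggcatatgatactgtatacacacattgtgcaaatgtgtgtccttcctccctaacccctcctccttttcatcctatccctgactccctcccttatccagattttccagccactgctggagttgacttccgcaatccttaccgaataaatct
The motif lies on the reverse strand in Ctss and begins 2 bases before the start. It was present in 2 of 8 genes of the set, Ctss and Ctsc, and in 3.69% of genes in the table. The Ctsk window holds no exact match to the motifs searched, and near matches were not counted.

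Ctsz, Ctsh and Ctsc encode exopeptidases, which clip residues from protein ends. Ctsz (ENSMUSG00000016256, chromosome 2, 174427493 to 174439039, minus strand), cathepsin X, measured 107, 85.1 and 74.0 CPM in collagenase replicates 1, 2 and 3, against 28.5, 33.0 and 39.5 CPM in saline replicates 1, 2 and 3. The log2 fold change was 1.40 (SE 0.17) with an edgeR adjusted p of 0.00688. Ctsz was the member whose highest saline value lay in saline replicate 3. Ctsh (ENSMUSG00000032359, chromosome 9, 90054152 to 90076089, plus strand), an aminopeptidase, measured 40.2, 29.9 and 29.8 CPM in collagenase replicates 1, 2 and 3, against 10.2, 11.8 and 10.4 CPM in saline replicates 1, 2 and 3. Its log2 fold change was 1.63 (SE 0.15) with an edgeR adjusted p of 0.00229. For both genes the groups did not overlap, and both calls survived the removal of any 1 of the 6 libraries.

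Ctsc (ENSMUSG00000030560, chromosome 7, 88278085 to 88310888, plus strand) encodes dipeptidyl peptidase 1, which activates serine proteases in granules of neutrophils, mast cells and cytotoxic lymphocytes. It measured 34.3, 24.2 and 20.5 CPM in collagenase replicates 1, 2 and 3, against 8.81, 13.3 and 6.10 CPM in saline replicates 1, 2 and 3. The groups did not overlap, and the saline values differed more among themselves than those of Ctss or Ctsh. The log2 fold change was 1.49 (SE 0.30) with an edgeR adjusted p of 0.0479, close to the threshold. The call held only without saline replicate 2 (edgeR adjusted p 0.0211). It ended without collagenase replicates 1, 2 or 3 (0.145, 0.123 and 0.0861) and without saline replicates 1 or 3 (0.228 and 0.0511). Of 10 granule serine proteases listed beside Ctsc, Elane and Ctsg had 0 counts in all libraries and 4 passed the filter. None of the 4 passed in edgeR; at an unadjusted p under 0.05 there was 1, Gzmk, with 0.463 CPM in collagenase and 0.0684 CPM in saline libraries on average (edgeR adjusted p 0.263), and 0 were called in DESeq2. Prtn3 and Cma1, proteases of neutrophils and mast cells, were the next by p. Neutrophil markers summed to 1.89, 0.833 and 3.29 CPM in collagenase libraries, against 0.721, 0.495 and 0.381 CPM in saline libraries, with Camp and Elane at 0 and 0 of 2 tested genes called in edgeR (1 at an unadjusted p under 0.05, 0 in DESeq2).

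Cst3 and Cst7 encode the cystatins of the set. Cst3 (ENSMUSG00000027447, chromosome 2, 148871722 to 148875692, minus strand), cystatin C, measured 871, 755 and 880.1 CPM in collagenase replicates 1, 2 and 3, against 712, 880.0 and 615 CPM in saline replicates 1, 2 and 3. The groups overlapped, and saline replicate 2 was as high as the highest collagenase library. The log2 fold change was 0.18 with a 95% interval of -0.16 to 0.52 (edgeR adjusted p 0.722). The upper bound of that interval lay below the lower bound of the intervals of Ctss, Ctsh, Ctsz, Ctsd and Ctsc, whose lower bounds were 1.82, 1.28, 1.01, 0.95 and 0.80. Astrocyte markers, of which 2 of 10 rose (Aqp4 and Gfap), summed to 5062, 4983 and 4746 CPM in collagenase libraries, against 3829, 3810 and 4198 CPM in saline libraries. Their part in the level of Cst3 was not tested.

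Cst7 (ENSMUSG00000068129, chromosome 2, 150570415 to 150578944, plus strand), cystatin F, blocks cathepsins such as Ctsc inside immune cells and is a gene of activated microglia. It had 561, 550 and 317 counts in collagenase replicates 1, 2 and 3, against 4, 0 and 0 counts in saline replicates 1, 2 and 3. Nearly all of its RNA was therefore in collagenase libraries. That is 11.8, 14.8 and 8.21 CPM in the collagenase libraries and 0.0901 CPM in saline replicate 1. The ratio of summed depth-scaled counts was 326 with an exact 95% interval of 127 to 1200, which covers counting error only. The fitted log2 fold change was 8.25 (SE 0.61, edgeR adjusted p 0.00111), and 11.80 without saline replicate 1, where no saline count remained. The size of the fitted value therefore rests on 4 reads, and the call survived the removal of any 1 of the 6 libraries.

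The promoters of the cystatin genes are set side by side because Cst7 was called and Cst3 was not (RefSeq, GRCm38.p6, from 250 bases before to 50 after the start, chr2:148875463-148875762, minus strand, for Cst3 and chr2:150570165-150570464, plus strand, for Cst7). Neither holds an exact match to a motif searched, so there are no capitals. Near matches were not counted.
Cst3 promoter: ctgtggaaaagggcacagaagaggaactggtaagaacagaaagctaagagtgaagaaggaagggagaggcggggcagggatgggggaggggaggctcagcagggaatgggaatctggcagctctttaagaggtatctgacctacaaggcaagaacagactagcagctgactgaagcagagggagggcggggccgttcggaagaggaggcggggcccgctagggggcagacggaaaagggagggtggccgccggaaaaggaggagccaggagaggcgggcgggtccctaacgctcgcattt
Cst7 promoter: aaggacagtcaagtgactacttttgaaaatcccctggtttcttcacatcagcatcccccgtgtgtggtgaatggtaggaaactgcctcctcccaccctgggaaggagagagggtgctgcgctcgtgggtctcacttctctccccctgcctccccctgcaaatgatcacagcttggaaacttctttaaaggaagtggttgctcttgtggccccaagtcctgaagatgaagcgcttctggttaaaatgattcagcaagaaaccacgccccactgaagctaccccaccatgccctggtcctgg
The genes lie 1694722 bases apart, with 30 annotated genes between them.

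**Figure D2:**
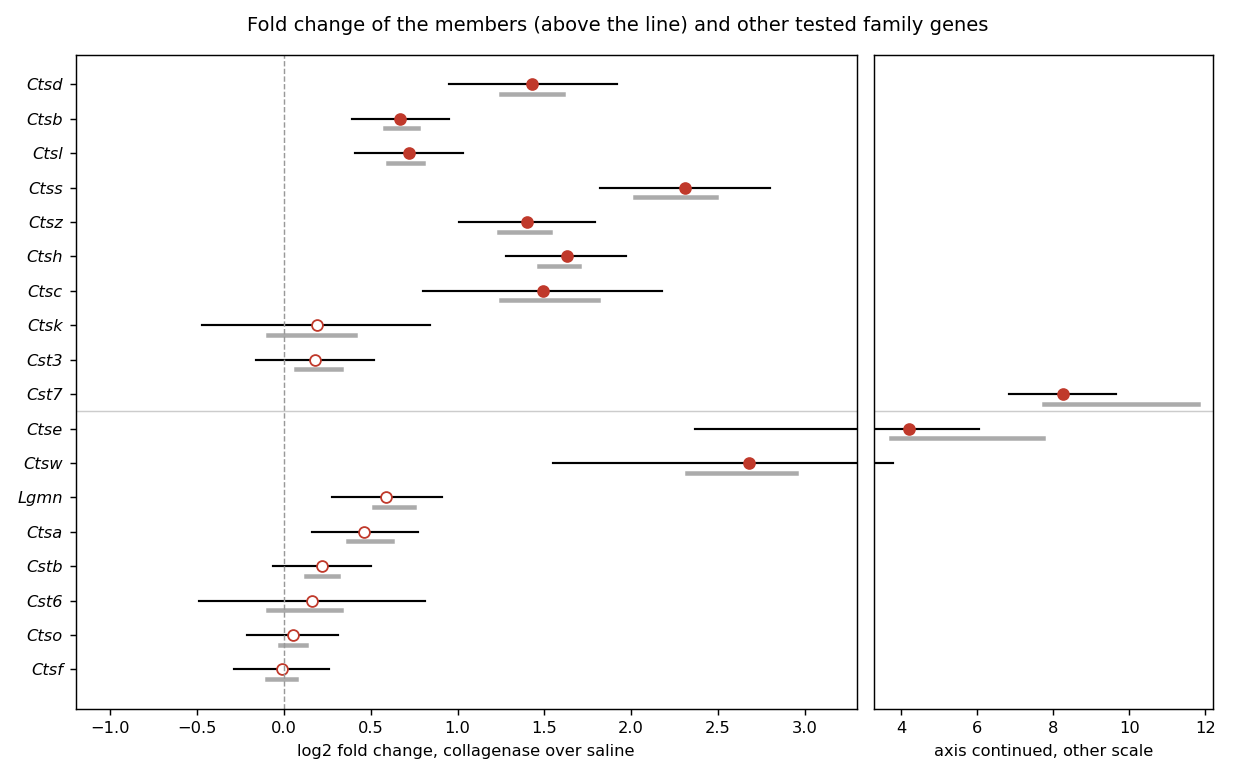
Log2 fold change of collagenase over saline (circle, filled where the edgeR adjusted p was under 0.05) with its 95% interval (black line) for the 10 members, above the grey line, and the 8 other tested family genes. Grey bars give the range when each library was removed in turn. The right panel continues the axis at another scale. The intervals of Cst3 and Ctsk include 0, and Ctss lies highest of the cathepsin members at 2.31.

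Levels of different genes were compared per length, as FPKM within a group. In collagenase libraries Cst3 was highest at 952 ± 95.6 FPKM, followed by Ctsd at 454 ± 134.5, Ctsb at 193 ± 31.2, Ctss at 140 ± 51.1 and Ctsz at 60.6 ± 13.9 FPKM (SD, n = 3). Ctsl at 42.8 ± 6.18, Ctsh at 20.5 ± 4.53, Cst7 at 11.5 ± 3.29, Ctsc at 9.88 ± 3.00 and Ctsk at 2.64 ± 0.0570 FPKM followed. Ranges overlapped between Ctsb and Ctss, between Ctsz and Ctsl and between Cst7 and Ctsc. In saline libraries Cst3 was again highest at 790 ± 184 FPKM, then Ctsd at 151 ± 35.9 and Ctsb at 114 ± 11.3 FPKM, which overlapped. Ctsl at 29.0 ± 5.48, Ctss at 26.2 ± 2.61 and Ctsz at 21.3 ± 2.47 FPKM came next and overlapped in order. Ctsh at 6.15 ± 0.755, Ctsc at 3.299 ± 1.46, Ctsk at 2.21 ± 0.918 and Cst7 at 0.0285 ± 0.0494 FPKM were lowest, and Ctsc and Ctsk overlapped. Ctss stood above Ctsl in all 3 collagenase libraries (ratios of 3.97, 3.21 and 2.46), whereas the ratio was 1.01, 0.797 and 0.947 in saline libraries. The size of this contrast depends on the FPKM scaling of Ctsl. Its depth-scaled count per FPKM was 3736, 3795 and 3297 in collagenase libraries, against 3561, 2758 and 2885 in saline libraries. From counts the log2 fold changes were 2.31 for Ctss and 0.72 for Ctsl.

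The makeup of the cathepsin RNA differed between groups. Summed over the 8 cathepsin genes, FPKM was 1186, 876 and 709 in collagenase replicates 1, 2 and 3, against 357, 408 and 294 in saline replicates 1, 2 and 3. Ctss made up 16.6%, 13.9% and 14.1% of that sum in collagenase libraries, against 7.72%, 6.86% and 7.90% in saline libraries. Ctsb made up 19.0%, 21.9% and 22.9% in collagenase libraries, against 32.1%, 30.5% and 34.6% in saline libraries, so its share was lower although its level was higher. Ctsd had the largest share in every library, from 46.4% to 50.3% in collagenase and from 38.2% to 45.0% in saline libraries. These shares were read after the fold changes were known and are descriptions without a test.

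Set against their main secreted inhibitor, the 7 cysteine cathepsins summed to 0.571, 0.517 and 0.389 FPKM per FPKM of Cst3 in collagenase replicates 1, 2 and 3, against 0.256, 0.229 and 0.297 in saline replicates 1, 2 and 3. The groups did not overlap, and the mean log2 ratio was higher by 0.91 in collagenase libraries, a difference that ranged from 0.79 to 1.07 when a library was left out. This ratio largely restates the fold changes of the cathepsins against that of Cst3, which were known beforehand, so it is a description without a test. RNA ratios do not give the ratio of proteins. For Ctsc and its intracellular inhibitor Cst7, the FPKM ratio was 1.09, 0.620 and 0.939 in the collagenase libraries, and 36.4 in saline replicate 1, where Cst7 had 4 counts. Together the 10 genes took 0.394%, 0.321% and 0.279% of all counts in collagenase libraries, against 0.183%, 0.215% and 0.147% in saline libraries.

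**Figure D3:**
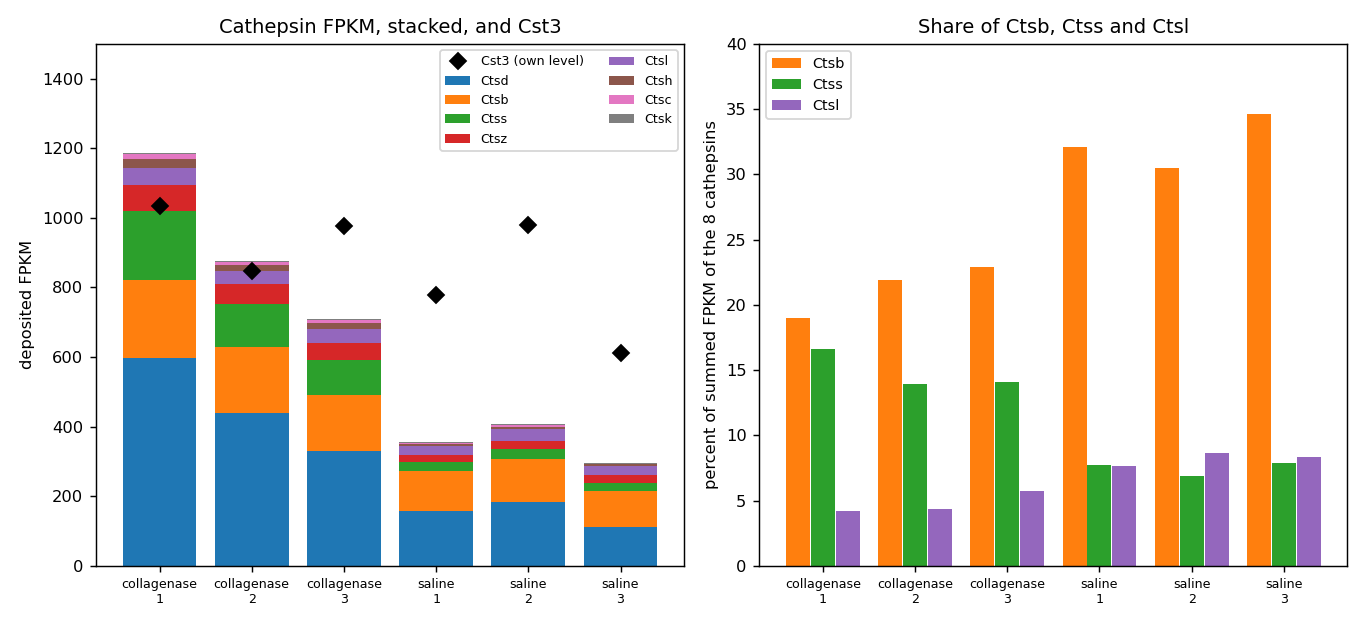
Left, deposited FPKM of the 8 cathepsin genes stacked by library with the level of Cst3 as diamonds; right, the percent of that cathepsin sum held by Ctsb, Ctss and Ctsl. The stacks are 709 to 1186 FPKM in collagenase and 294 to 408 FPKM in saline libraries, while Cst3 overlaps between groups.

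The members varied together within groups to some extent. Collagenase replicate 1 was the highest collagenase library for 7 of 10 members, and collagenase replicate 3 the lowest for 8 of 10. In saline, replicate 3 alone was the lowest for 7 of 10, the exceptions being Ctsz, Ctsh and Cst7, for which saline replicates 2 and 3 were both at 0, and replicate 2 the highest for 6 of 10. Summed CPM of 12 microglia markers was 732, 614 and 535 in collagenase replicates 1, 2 and 3, against 333, 334 and 359 in saline replicates 1, 2 and 3. The order of the collagenase libraries in this sum was that of most members, whereas in saline replicate 3 had the highest sum and the lowest level of most members. Of the 12 markers 5 rose in edgeR, among them Csf1r, Cx3cr1, Fcrls and Aif1, while 7 did not pass and none was at 0. For 9 of the 12 all collagenase libraries lay above all saline libraries, against 10.1% of tested features. In edgeR 9 had an unadjusted p under 0.05, and 7 were called in DESeq2. Among those that did not pass, Tmem119 and Itgam had log2 fold changes of 0.51 and 1.14 (edgeR adjusted p 0.0907 and 0.0732). P2ry12, a receptor of resting microglia, had the smallest log2 fold change of the 12, 0.17 (edgeR adjusted p 0.809). It measured 34.7 CPM in collagenase and 31.0 CPM in saline libraries on average, and its groups overlapped. In tissue RNA more cells of a type and more RNA per cell cannot be told apart. Markers of monocytes and macrophages summed to 479, 288 and 203 CPM in collagenase libraries, against 18.4, 24.6 and 19.0 CPM in saline libraries, with 2 of 9 tested genes called. The macrophage lysozyme gene Lyz2 supplied most of that sum, at 447, 268.5 and 183 CPM in collagenase libraries. Their part in the rise of the members was not tested.

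Per CPM of Csf1r, the receptor that microglia and macrophages depend on, the members divided. Csf1r itself rose (log2 fold change 0.88, edgeR adjusted p 0.013). The scale therefore largely restates each member's fold change against that of Csf1r, and a lower ratio is not a lower level. Ctss measured 1.59, 1.26 and 1.16 CPM per CPM of Csf1r in collagenase replicates 1, 2 and 3, against 0.545, 0.513 and 0.459 in saline replicates 1, 2 and 3. Ctss, Ctsd, Ctsh, Ctsz and Cst7 were higher on this scale in every collagenase library than in any saline library. Ctsb was lower, at 6.34, 6.97 and 6.62 in collagenase libraries and 7.92, 7.98 and 7.03 in saline libraries. Cst3 was lower as well, at 5.28, 5.56 and 7.21 in collagenase libraries and 9.77, 11.4 and 7.65 in saline libraries. Ctsc, Ctsk and Ctsl overlapped. Other cells express Ctsb, Ctsd and Cst3 as well, so these ratios are descriptions.

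Beyond the set, the family list held 37 other cathepsins, cystatins and legumain. Of these 35 were in the files, 17 had 0 counts in all libraries and 8 could be tested, of which 2 rose, 0 fell and 6 did not pass. The placental cathepsins, such as Ctsj, Ctsm, Ctsq and Ctsr, were among those at 0, as were the reproductive cystatins Cst8, Cst9 and Cst11. Ctsw, a cathepsin of cytotoxic T and natural killer cells, had 67, 21 and 38 counts in collagenase replicates 1, 2 and 3, against 5, 5 and 7 counts in saline replicates 1, 2 and 3. Its log2 fold change was 2.68 (SE 0.49, edgeR adjusted p 0.0314). Ctse, an aspartic protease of endosomes in immune and epithelial cells, had 29, 32 and 24 counts in collagenase libraries, against 4, 0 and 0 counts in saline libraries (log2 fold change 4.21, SE 0.80, edgeR adjusted p 0.0359).

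Both are low-count genes. The call of Ctsw held after 2 of the 6 removals of a library (without collagenase replicate 2, edgeR adjusted p 0.0485, and without saline replicate 3, 0.0312) and was lost without collagenase replicates 1 or 3 (0.126 and 0.111) or saline replicates 1 or 2 (0.176 and 0.0752). That of Ctse held only without saline replicate 3 (0.0377), and was lost without collagenase replicates 1, 2 or 3 (0.111, 0.135 and 0.126) or saline replicates 1 or 2 (0.0588 and 0.0697); its log2 fold change was 7.74 without saline replicate 1. T and NK cell markers moved in the same direction as Ctsw: Cd3e, Cd3g, Cd8a and Nkg7 had 0 counts in saline libraries and were the 4 called of 5 tested markers, each held after 2 to 4 of the 6 removals, while Cd4 did not pass. Cd4 had 140, 21 and 24 counts in collagenase libraries, against 27, 13 and 446 counts in saline libraries, and its log2 fold change was -1.74 with all libraries and 1.48 without saline replicate 3, with neither passing. Their part in the rise of Ctsw was not tested.

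Lgmn encodes legumain, which cuts cathepsin precursors and the invariant chain. It measured 209, 195 and 182 CPM in collagenase replicates 1, 2 and 3, against 116.4, 116.1 and 156 CPM in saline replicates 1, 2 and 3. The groups did not overlap but it did not pass (log2 fold change 0.59, 95% interval 0.28 to 0.91, edgeR adjusted p 0.0726), and without saline replicate 3, the highest saline library, it passed (0.75, edgeR adjusted p 0.00744). Lgmn was also called in DESeq2 (adjusted p 0.00392), in edgeR with total counts alone (0.0275) and in limma on log2(FPKM + 0.1) and log2(FPKM + 1) (0.0344 and 0.0401), but not with the replicate block (0.133). Ctsa, a serine carboxypeptidase that protects lysosomal sialidase, also did not pass, at 179.8 ± 2.67 CPM in collagenase and 130.3 ± 23.3 CPM in saline libraries (SD, n = 3 each; log2 fold change 0.46, edgeR adjusted p 0.158, or 0.00981 without saline replicate 3). It was called in DESeq2 (adjusted p 0.0432) and in edgeR with total counts alone (0.0435). Ctsf and Ctso, ubiquitous cysteine cathepsins, had log2 fold changes of -0.01 (95% interval -0.29 to 0.26) and 0.05 (-0.21 to 0.31). The cytosolic inhibitor Cstb measured 22.5 ± 2.86 CPM in collagenase and 19.3 ± 0.332 CPM in saline libraries (log2 fold change 0.22, 95% interval -0.06 to 0.50), and Cst6 also did not pass (0.16, -0.49 to 0.81). Among cystatin-domain plasma proteins below the count filter, Kng2 had 50, 6 and 19 counts in collagenase libraries and 0 in each saline library. It was called in both settings that tested it on all 6 libraries, edgeR without the filter (adjusted p 0.0316) and DESeq2 (adjusted p 0.00053). When a library was left out, Kng2 passed the filter in some runs and was called in none of them. These were without collagenase replicate 2 (edgeR adjusted p 0.0619) and without saline replicates 1, 2 or 3 (0.204, 0.0908 and 0.0578). Kng1 had 35, 0 and 0 counts in collagenase libraries and 0 in each saline library.

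Genes that carry cathepsins to the lysosome or set lysosomal transcription gave no call in edgeR. Of 15 sorting genes 0 passed in edgeR, with a median log2 fold change of -0.01, and 1 had an unadjusted p under 0.05, the endocytic receptor Lrp1 (426 CPM in collagenase and 336 CPM in saline libraries on average; log2 fold change 0.34, edgeR adjusted p 0.177). The sorting receptors Sort1 and Igf2r had log2 fold changes of -0.20 and 0.24. Of 8 tested lysosomal regulators 0 passed, none had an unadjusted p under 0.05 and the median was 0.03; Tfeb measured 17.8 CPM in collagenase and 15.1 CPM in saline libraries on average (log2 fold change 0.24, edgeR adjusted p 0.544), and Tfe3, its relative, had a log2 fold change of 0.20 and Rragc, a GTPase that recruits it, one of 0.09. In DESeq2 1 of the sorting genes, Lrp1, and 0 of the regulators were called. The test reads RNA, whereas TFEB is known to be controlled by its location in the cell.

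Of 9 tested genes of the invariant chain and class II loading, where Ctss and Ctsl act, 5 rose and 4 did not pass. For all 9 every collagenase library lay above every saline library. Over all tested features 2.12% were called higher, and 10.1% had all collagenase libraries above all saline libraries. Cd74, the invariant chain itself, measured 93.9, 64.2 and 61.3 CPM in collagenase libraries, against 3.78, 4.65 and 3.73 CPM in saline libraries (log2 fold change 4.17, SE 0.20, edgeR adjusted p 0.000224), and H2-Ab1 and H2-Eb1 had log2 fold changes of 4.17 and 3.50. Of 10 lysosomal partner genes 3 rose, among them Hexa and Naglu, which degrade glycolipids and glycosaminoglycans, with log2 fold changes of 0.67 and 0.69. Psap, the sphingolipid activator precursor, did not pass (log2 fold change 0.28, edgeR adjusted p 0.38). The calls of Hexa and Naglu held after 3 and 1 of the 6 removals of a library.

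Ctsk was set beside 12 tested genes of osteoclasts, cells in which it is the leading protease. Of these 1 rose in edgeR and 11 did not pass, while 5 had an unadjusted p under 0.05 and 3 were called in DESeq2. For 6 of the 12 all collagenase libraries lay above all saline libraries, against 10.1% of tested features. The median log2 fold change was 0.42. The edgeR call was for Atp6v0d2, a proton pump subunit, with 11.5, 5.91 and 4.22 CPM in collagenase libraries and 0 counts in each saline library. Mmp9 and Tcirg1 had the next smallest p-values, with log2 fold changes of 1.18 (edgeR adjusted p 0.112) and 0.54 (0.116). Fibroblast markers, of which 5 of 9 tested rose, summed to 286.5, 204 and 193 CPM in collagenase libraries, against 110.4, 139 and 104 CPM in saline libraries, while Ctsk did not pass.

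**Figure D4:**
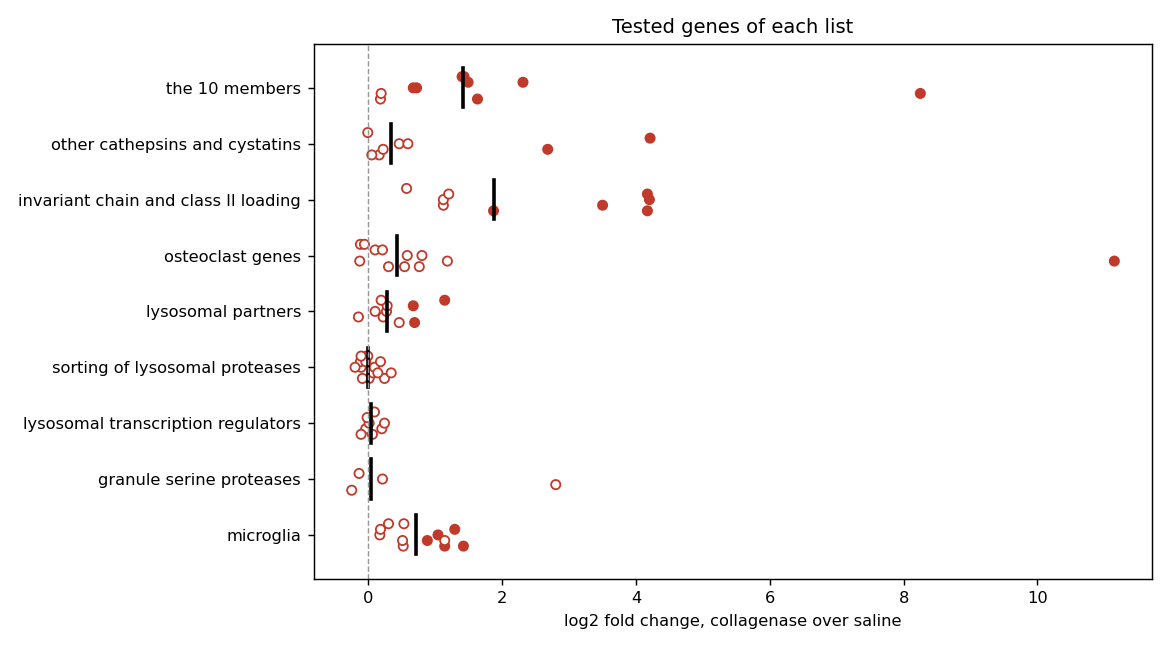
Log2 fold change of collagenase over saline for every tested gene of the 10 members and of 8 lists, filled where the edgeR adjusted p was under 0.05, with the list median as a black bar. The members have a median of 1.42 and the sorting genes of -0.01; the point beyond 11 is Atp6v0d2, whose saline counts were 0, so that its fitted value depends on the prior count.

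The likeness of other genes was measured as Pearson's r of log2 CPM with each member over the 6 libraries, among 13202 genes. The 2 closest genes were Adgre1, the F4/80 antigen of macrophages, and Havcr2 for Ctss (r = 0.9993 and 0.9982), Vsir and Hexa for Ctsb (0.9987 and 0.9985), Hacd4 and Syk for Ctsd (0.9963 and 0.9954) and H2-D1 and Cybb for Ctsl (0.9986 and 0.9980). They were Hcls1 and Mylip for Ctsz (r = 0.9988 and 0.9980), H2-Eb1 and Cd84 for Ctsh (0.9986 and 0.9974), Asap3 and Gusb for Ctsc (0.9974 and 0.9961) and Ripk1 and Lag3 for Cst7 (0.9973 and 0.9953). For the members that did not pass they were Tbx18 and Ipcef1 for Cst3 (r = 0.9975 and 0.9946) and Hunk and Htr1a for Ctsk (0.9972 and 0.9963). With so many candidates over 6 libraries that fall into 2 groups, high values are easily reached, and no p is given.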

How the data were processed

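Poly(A) RNA of 6 VPL/VPM libraries was primed with random hexamers, per the labels' protocols, which name no step that keeps the strand. HISAT2 2.2.1, StringTie, FastQC, DESeq2 and GRCm38 are listed in the submitters' processing notes without roles. The annotation release and the counting settings were not given in the sources used here. Each deposited file gives the authors' whole-number count and the authors' FPKM per feature, per the file headers.

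Of 26554 features, 22036 carried Ensembl identifiers, of which 22022 matched a symbol. Counts were scaled by TMM, filtered with filterByExpr (17240 features left) and tested with edgeR 4.0.16 (robust quasi-likelihood, groups only, R 4.3.3), with Benjamini-Hochberg adjustment over all tested features. The procedure was also run on simulated counts with known changes. Those counts held no library that stood apart from its group, so that run does not bear on calls that depend on single libraries. Alternatives were other scalings, no filter, DESeq2 1.42.0, limma 3.58.1 on log2(FPKM + 0.1) and log2(FPKM + 1), a replicate block, estimation without robustness and leaving out each library. Levels were compared between genes as FPKM. Exon positions came from GENCODE (GRCm38), promoters from RefSeq (GRCm38.p6).

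The members and lists were chosen with earlier results of these data known. Named were all members, the tested family genes, up to 3 genes of smallest p per pathway list and the 2 genes most like each member; other genes were named after their values were seen. Intervals on counts cover counting error only. A listed item of the gene lists is not reported here by name.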

Additional observations from a re-analysis of the deposited data

How the results depend on the processing

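With 3 libraries a group, calls near the threshold depend on single libraries. Leaving out 1 library gave 81 to 503 features called higher and 4 to 414 called lower, 4 to 7 members called and 0 to 4 of the other family genes. The log2 fold changes then ranged from 0.58 to 0.77 for Ctsb, 1.25 to 1.81 for Ctsc, 1.25 to 1.61 for Ctsd, 1.47 to 1.70 for Ctsh, 0.60 to 0.80 for Ctsl, 2.02 to 2.49 for Ctss, 1.24 to 1.53 for Ctsz, 0.07 to 0.33 for Cst3, 7.76 to 11.80 for Cst7 and -0.09 to 0.41 for Ctsk, which was below 0 only without saline replicate 3. The log2 ratio of cysteine cathepsins to Cst3, 0.91 with all libraries, ranged from 0.79 to 1.07; it was 0.68 from TMM-scaled CPM, 1.08 with Ctsd in the sum and 0.89 with Cst7 added to Cst3. Over all features, DESeq2 called 608 higher and 180 lower; 29 were lower with total counts alone, 22 in limma on log2(FPKM + 0.1) and 23 on log2(FPKM + 1). Members called numbered 5 in limma on log2(FPKM + 1), and family genes 4 with total counts alone and 5 in DESeq2, Lgmn and Ctsa among them in both. Ctsc was no longer called with total counts alone (1.55, adjusted p 0.0645), without the filter (1.49, 0.0624) or in limma (1.60, 0.0574 with 0.1 added; 1.36, 0.0615 with 1 added). Ctsl was no longer called with total counts alone (0.79, 0.0555) or in limma (0.57, 0.168; 0.55, 0.173), nor Ctsb in limma with 1 added (0.75, 0.0524). The cause was not tested. The labels do not say that replicate numbers pair libraries across groups, so the numbers were not taken as pairs. Same-numbered libraries deviated together with r of 0.147, 0.00558 and 0.241, and differently numbered ones with r of -0.228 to 0.18, which does not settle the question. With the replicate block 7 members and 0 family genes were called, and Ctsb had a log2 fold change of 0.66 (adjusted p 0.0633). The calls of Ctss, Ctsh, Ctsz and Cst7 held in every alternative run.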
